A study of Mus musculus with 6 samples.

Results

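The lipins are the 3 phosphatidate phosphatases encoded by Lpin1, Lpin2 and Lpin3. They were chosen by gene symbol, as a family whose values in these libraries were already known, and all 3 were found among the 15092 genes of the table and passed the filter on low counts. Polyadenylated RNA from mouse liver was sequenced in 3 libraries of wild-type mice (WT) and 3 libraries labelled CRY1 KO, for knockout of the clock repressor gene Cry1, all of the C57BL/6J strain. The labels name hepatocyte as the cell type and describe no sorting, and they give no age, sex, feeding state, time of day or treatment. Each title carries the prefix NC, which the labels do not explain, and they do not say whether replicates were separate animals, so the tests measure the spread between these libraries, which may be technical.

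Lipins remove the phosphate from phosphatidate in the membrane of the endoplasmic reticulum, a magnesium-dependent step that yields diacylglycerol. Diacylglycerol is then acylated to triglyceride or used to make phosphatidylcholine and phosphatidylethanolamine, while phosphatidate that is not dephosphorylated can enter the CDP-diacylglycerol branch toward phosphatidylinositol and cardiolipin. Lipin 1 is also known as a nuclear coactivator that works with PGC-1α and PPARα on genes of fatty acid oxidation, and in liver its transcript is known to respond to fasting, glucocorticoids and sterol depletion. Lipin 2 is the paralog usually described as the main lipin protein of liver, and lipin 3 is best known from intestine.

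On GRCm38 the transcripts used here lie at chr12:16535669-16589770 on the minus strand for Lpin1, chr17:71183978-71249817 on the plus strand for Lpin2 and chr2:160880670-160905997 on the plus strand for Lpin3. The catalytic site shows what the paralogs share. In each reference transcript the coding sequence held a single match to the aspartate-X-aspartate-X-threonine motif of this phosphatase family, in exon 16 of 21 for Lpin1, exon 15 of 20 for Lpin2 and exon 15 of 20 for Lpin3. The lines give 60 coding bases around it, 5′ to 3′, from GENCODE M21 transcripts (GRCm38), with the 15 bases of the motif in capitals; they begin at coding base 2113, 2035 and 1900.
Lpin1: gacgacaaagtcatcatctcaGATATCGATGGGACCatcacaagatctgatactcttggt
Lpin2: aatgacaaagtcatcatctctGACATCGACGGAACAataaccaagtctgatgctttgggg
Lpin3: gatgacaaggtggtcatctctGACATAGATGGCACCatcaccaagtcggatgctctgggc
Over this stretch Lpin2 and Lpin3 were identical at 48 of 60 bases, and Lpin1 matched each of them at 45 of 60. Over the aligned coding sequence identity lay between 65.0% and 65.9% for the 3 pairs, and the longest run of identical bases between any pair of transcripts was 24 bases, between Lpin1 and Lpin3.

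The promoters of Lpin1 and Lpin2 are shown because these genes were high and low in the same libraries, as described below. Each line is the 250 bases before a start site in RefSeq (GRCm38.p6), 5′ to 3′ on the gene's strand; all 3 members matched the promoter table, with 1 start for Lpin1, 3 for Lpin2 and 2 for Lpin3. The Lpin1 window is chr12:16610967-16611216 on the minus strand and the Lpin2 window, that of its most upstream start, is chr17:71183282-71183531 on the plus strand.
Lpin1: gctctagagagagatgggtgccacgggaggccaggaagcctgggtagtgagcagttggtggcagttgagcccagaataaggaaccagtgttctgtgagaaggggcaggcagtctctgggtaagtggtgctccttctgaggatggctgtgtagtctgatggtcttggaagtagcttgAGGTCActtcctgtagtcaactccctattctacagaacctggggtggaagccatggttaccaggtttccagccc
Lpin2: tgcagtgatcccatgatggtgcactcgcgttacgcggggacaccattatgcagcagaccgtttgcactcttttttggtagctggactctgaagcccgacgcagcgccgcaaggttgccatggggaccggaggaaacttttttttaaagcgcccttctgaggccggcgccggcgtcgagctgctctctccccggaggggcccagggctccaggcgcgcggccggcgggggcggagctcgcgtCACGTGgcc
Capitals mark AGGTCA, the core recognised by many nuclear receptors, in Lpin1, and CACGTG, the E-box bound by CLOCK and BMAL1, in Lpin2. The AGGTCA match began 74 bases before the Lpin1 start, and 14.0% of the 32851 promoter windows of this length held it on either strand. The CACGTG match began 9 bases before the Lpin2 start, and 6.02% of windows held it. Neither motif was found in the other windows of the 3 genes, and the sterol motif TCACNCCAC (1.05% of windows) and the palindromic core ACANNNTGT of the glucocorticoid receptor site (5.84%) were found in none of the 6 windows, nor was the D-box core TTANNTAA (5.43%). Of the other motifs searched, TGACG, the core of the cAMP response element (17.8%), overlapped the E-box of the same Lpin2 window on the reverse strand, and CCAAT (33.8%) lay 3 times in another Lpin2 window. These matches describe letters in a window and not binding. GENCODE M21 also annotates the longest Lpin1 transcript from a start at position 16589770 of chromosome 12, for which no window was at hand. The Lpin2 transcript used here starts at position 71183978 of chromosome 17, another of the 3 Lpin2 starts, and its window held no E-box. Gene totals do not show which start was used.

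Library totals ran from 79708703 to 91316332 estimated counts. Cry1 itself had estimated counts of 413, 579 and 694 among WT libraries, against 561, 521 and 445 among those labelled CRY1 KO (log2 -0.03, SE 0.19, edgeR adjusted p = 0.954), so the gene total does not check the knockout labels, and a deletion of part of the gene could not be seen in it. Hepatocyte markers were abundant in every library, with Alb between 45886 and 62772 CPM. The haemoglobin share of all counts was 0.267% for WT 1 and at most 0.0917% for any other library, and 11 Kupffer cell and macrophage markers summed to 650 CPM in WT 1, 408 in WT 2, 255 in WT 3 and 234 to 236 in the libraries labelled CRY1 KO. The part of other cells in the lipin values was not tested, and in whole liver fewer cells of a type and less RNA per cell cannot be told apart.

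Lpin1 was at a high level in 4 libraries and at a low level in 2. On the CPM scale, which divides counts by the scaled library size, it stood at 417.9, 27.9 and 22.6 in WT 1, 2 and 3 and at 320.2, 585.3 and 774.9 in CRY1 KO 1, 2 and 3. WT 1 lay inside the range of the libraries labelled CRY1 KO, so the groups overlapped, while WT 2 and WT 3 lay below all others. The underlying estimated counts were 2171 at the lowest and 66006 at the highest, so the low libraries were still well counted. Among 8814 tested genes with a mean of at least 5 CPM, the ratio of 18.5 between the highest and lowest WT library of Lpin1 ranked 9, and its ratio of 34.2 over all 6 libraries ranked 11. Within the libraries labelled CRY1 KO the ratio was 2.42.

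Lpin2 was also low in WT 2 and WT 3, over a smaller range. It stood at 309.0, 88.5 and 115.0 CPM in WT 1, 2 and 3 and at 386.3, 352.7 and 417.3 CPM in CRY1 KO 1, 2 and 3. WT 1 was the highest WT library here too, but it lay below every library labelled CRY1 KO, so the groups did not overlap. The ratio of highest to lowest was 3.49 in WT, which ranked 94 among the 8814 genes, and 1.18 in CRY1 KO.

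Lpin3 was the scarce paralog and the steady one. Its estimated counts were 437, 550 and 530 among WT libraries (1, 2 and 3), against 460, 416 and 411 among those labelled CRY1 KO, or between 4.83 and 6.54 CPM. The groups overlapped, and its highest library, WT 2, was one of the low libraries of Lpin1 and Lpin2. The ratio of highest to lowest over the 6 libraries was 1.36, close to the median of 1.38 over the 8814 genes.

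**Figure D1:**
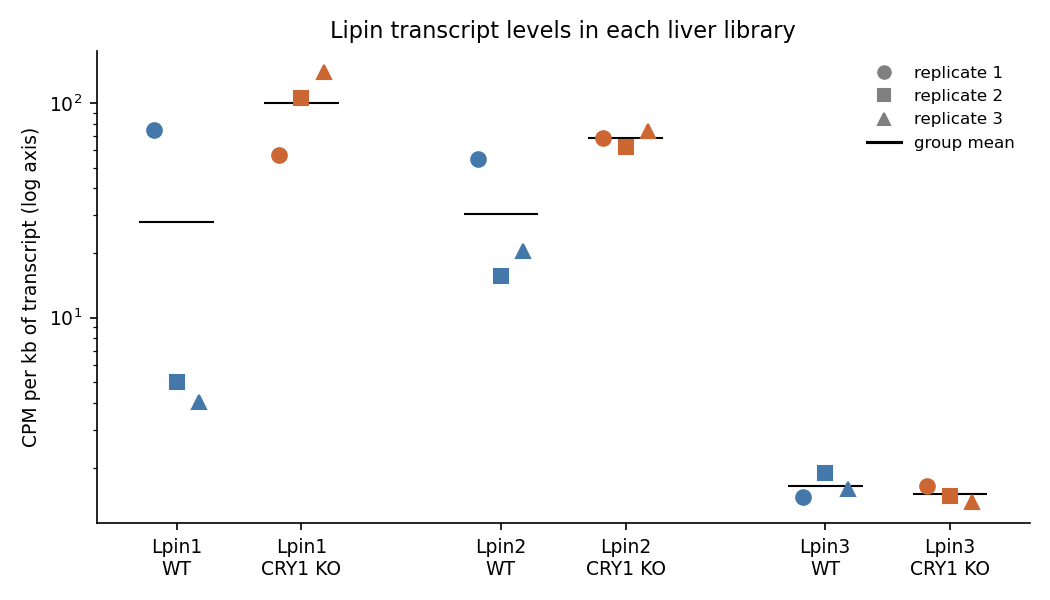
Level of each lipin in CPM per kb of transcript (log axis) in WT (blue) and CRY1 KO (orange) libraries, with a marker shape for each replicate and a bar at the group mean. Lpin1 spans 4.06 to 138.9 with WT 2 and WT 3 far below the rest, Lpin2 spans 15.7 to 74.0 in the same direction, and Lpin3 stays between 1.39 and 1.89.

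As group values, Lpin1 averaged 156.1 ± 226.7 CPM over the WT libraries and 560.1 ± 228.4 CPM over those labelled CRY1 KO (SD, n = 3 each), and the edgeR fit over all genes gave a log2 difference of 1.84 (SE 1.36). The corresponding values of Lpin2 were 170.8 ± 120.4 and 385.5 ± 32.3 CPM, with a log2 difference of 1.17 (SE 0.51). For Lpin3 they were 5.72 ± 0.748 and 5.21 ± 0.445 CPM, with a log2 difference of -0.13 (SE 0.15). The SD of Lpin1 in WT exceeded its mean, since 1 of the 3 libraries carried most of it. The edgeR difference follows mean counts, which WT 1 dominates, and the difference of mean log2 CPM, which weighs each library alike, was 3.03 for Lpin1 and 1.39 for Lpin2. These are descriptions, since the family was chosen with the values known. By the edgeR quasi-likelihood test with Benjamini-Hochberg adjustment, 0 of the 3 members passed the threshold of 0.05, also 0 at an unadjusted p under 0.05 and 0 by DESeq2, where 1.70% of the 13816 tested genes passed edgeR, 1.06% higher and 0.644% lower in CRY1 KO. At an unadjusted p under 0.05 there were 2860 of all tested genes, and by DESeq2 1284. The groups did not overlap in 1 of 3 members, against 27.3% of tested genes, 14.6% with CRY1 KO the higher group. Nothing is read from these counts of members.

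WT 1 set the size of the differences. Without it the log2 difference became 4.47 (SE 0.48) for Lpin1 and 1.92 (SE 0.14) for Lpin2. Both then passed the threshold, as did 4.04% of the genes tested without that library. WT 1 was the highest WT library of both genes, so leaving it out raises these differences and narrows the WT spread by itself. Nothing is read from their passing. Leaving out any other library gave 1.33 to 2.13 for Lpin1 and 0.86 to 1.23 for Lpin2, with 0 members past the threshold. Lpin3 kept a negative difference, between -0.21 and -0.03, in all 6 of these fits.

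**Figure D2:**
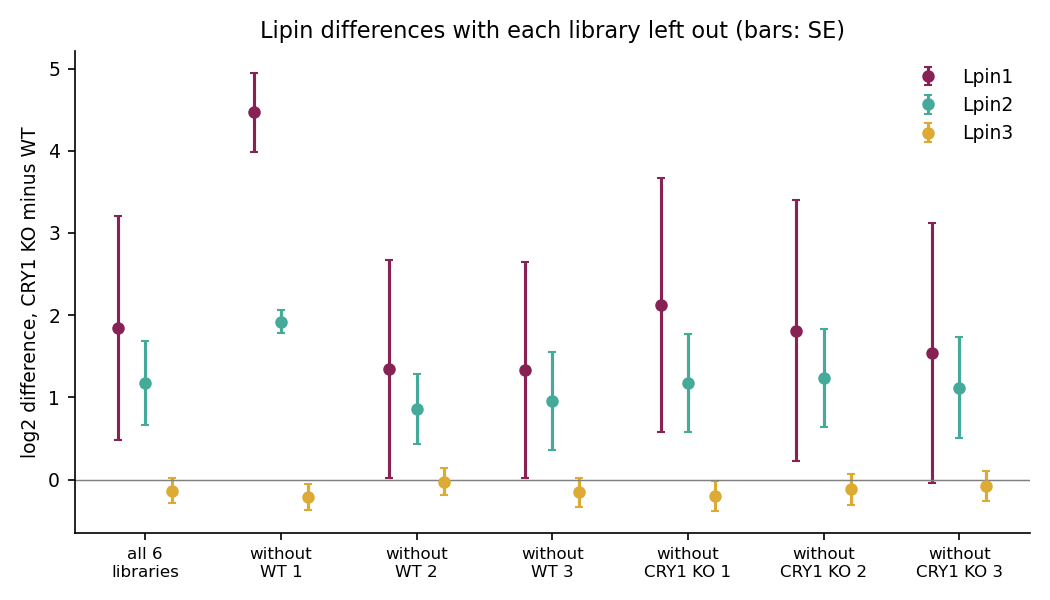
Log2 difference of CRY1 KO minus WT for Lpin1, Lpin2 and Lpin3 (points, with bars of 1 SE from edgeR) with all 6 libraries and with each library left out. The points for Lpin1 and Lpin2 stand highest, at 4.47 and 1.92, and have their shortest bars without WT 1.

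Paralog use was compared per kb of transcript, with 5581 bases for Lpin1, 5640 for Lpin2 and 3470 for Lpin3 (the longest protein-coding transcript of each in GENCODE M21). In WT 2 and WT 3, Lpin2 was the main lipin transcript, with 69.5% and 78.3% of the summed level, and Lpin1 made up 22.2% and 15.6%. In WT 1, Lpin1 led with 57.1% over the 41.8% of Lpin2. Among the libraries labelled CRY1 KO, Lpin2 led in CRY1 KO 1 (53.7%), and Lpin1 led in CRY1 KO 2 (62.1%) and CRY1 KO 3 (64.8%). The leading paralog therefore differed inside each group, and the ratio of Lpin1 to Lpin2 ran from 0.20 in WT 3 to 1.88 in CRY1 KO 3.

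Lpin3 ranked last in every library. It made up 8.35% and 6.12% of the summed level in WT 2 and WT 3 and between 0.65% and 1.29% in the other 4, where its own level hardly differed and the other paralogs were high. Lpin1 exceeded it 2.55-fold in WT 3, where the gap was smallest, and 99.9-fold in CRY1 KO 3.

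Levels of Lpin1 and Lpin2 could not be ordered beyond their spread in either group, at 28.0 ± 40.6 and 30.3 ± 21.3 CPM per kb in WT and 100.4 ± 40.9 and 68.3 ± 5.73 CPM per kb in CRY1 KO (SD, n = 3 each). The summed lipin level was 131.1, 22.6 and 26.0 CPM per kb among WT libraries (1, 2 and 3), against 127.5, 168.9 and 214.2 among those labelled CRY1 KO. WT 1 thus lay between CRY1 KO 1 and CRY1 KO 2 in the sum, and WT 2 and WT 3 lay below the other 4 libraries. The mean share of Lpin1 was 31.6 ± 22.3% in WT and 57.3 ± 10.7% in CRY1 KO, and 18.9% in WT without WT 1. With coding length in place of transcript length these shares were 31.2% and 56.4%. The longest and next longest coding lengths of annotated Lpin1 transcripts differ by 99 bases, 2772 against 2673, and the gene totals do not separate these isoforms.

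**Figure D3:**
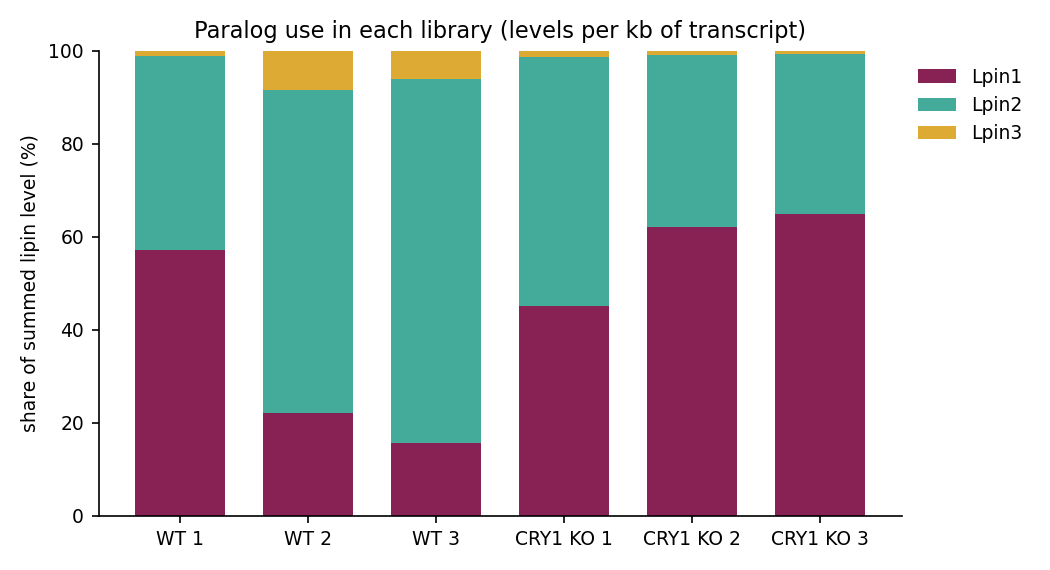
Share of Lpin1, Lpin2 and Lpin3 in the summed lipin level of each library (stacked bars, percent, levels per kb of transcript). Lpin2 takes the largest part in WT 2, WT 3 and CRY1 KO 1, Lpin1 in WT 1, CRY1 KO 2 and CRY1 KO 3, and Lpin3 is at most 8.35%.

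The pathway lists that follow were chosen with earlier results known. Of their 196 tested genes 11 passed the edgeR test, against 1.70% of all tested genes. Counts at an unadjusted edgeR p under 0.05 and by DESeq2 are also given below. Over all 13816 tested genes these were 2860 and 1284. That count was 46 without WT 1, 20 without WT 3, 2 without CRY1 KO 1, 1 without CRY1 KO 2, 1 without CRY1 KO 3 and 0 without WT 2, so each call named here is lost when WT 2 is left out. The first list held 14 tested genes that supply glycerol 3-phosphate or act in acylation steps before lipin. Of these 0 passed the edgeR test (6 at an unadjusted p under 0.05, 3 by DESeq2). Their median log2 difference was 0.08 against -0.02 over all tested genes. That median had no stable sign, at -0.03 without WT 3 and -0.05 without CRY1 KO 3. Gpam, which encodes the mitochondrial acyltransferase of the first step, had a log2 difference of -0.30 (SE 0.12), and Agpat2, an acyltransferase of the step that forms phosphatidate, of -0.53 (SE 0.14). Gpat3, an acyltransferase of the endoplasmic reticulum, had -0.59 (SE 0.38). Among the 11 genes of this list with at least 5 CPM, the largest ratio of highest to lowest library was 1.95, for Agpat2. The ratio was 34.2 for Lpin1 and 4.72 for Lpin2. In the triglyceride list below it reached 9.10, for the lipid droplet gene Plin4, which exceeds Lpin2. In the phospholipid list it reached 3.04, for Chka. The largest ratio was 1.53 in the CDP-diacylglycerol list and 2.29 among other phosphatidate enzymes.

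After the lipin step, 2 of 20 tested genes of triglyceride synthesis, storage and release passed the edgeR test, both higher. The list median of 0.17 fell to 0.07 without WT 3, without CRY1 KO 1 or without CRY1 KO 3. They were Fitm2 (log2 0.65, SE 0.08, adjusted p = 0.0171), which encodes a protein of lipid droplet formation, and Pnpla2 (log2 0.49, SE 0.09, adjusted p = 0.0417), which encodes adipose triglyceride lipase. The enzyme genes that use diacylglycerol for triglyceride did not pass, with Dgat1 at -0.12 (SE 0.10) and Dgat2 at 0.17 (SE 0.10). The lipid droplet genes Plin4 (1.49, SE 0.51) and Cidec (0.89, SE 0.29) had the largest differences of the list and did not pass.

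On the phospholipid side, 1 of 14 tested genes passed and it was lower. Chka, which encodes a choline kinase, had 39.1, 36.1 and 53.8 CPM among WT libraries, against 22.2, 19.2 and 17.7 CPM among those labelled CRY1 KO (log2 -1.13, SE 0.16, edgeR adjusted p = 0.0251). Its groups did not overlap, and WT 1 was no exception among the WT libraries, unlike in Lpin1. Pcyt1a (0.18), Pcyt2 (-0.03) and Pemt (-0.06), for later steps of phosphatidylcholine and phosphatidylethanolamine synthesis, did not pass, and Pcyt2 (0.08 without WT 1) and Pemt (0.02 without WT 2) changed sign, nor did Etnk2 (-0.26), an ethanolamine kinase gene. Of 7 genes of the CDP-diacylglycerol branch, which takes phosphatidate before lipins act on it, 0 passed the edgeR test, with 0 at an unadjusted p under 0.05 and 0 by DESeq2. Its gene Cds2 had a log2 difference of -0.02 (0.01 without WT 3 or CRY1 KO 1), and Cds1 (-0.48, but 0.11 without WT 1) and Pgs1 (-0.20) had the largest. The list median of -0.12 was -0.05 without WT 1.

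Of 16 tested genes of other phosphatases, phospholipases D and diacylglycerol kinases, which make or use phosphatidate elsewhere, 0 passed edgeR (4 at an unadjusted p under 0.05, 2 by DESeq2). Plpp3, which encodes a magnesium-independent lipid phosphate phosphatase, had 70.5, 82.4 and 104.1 CPM among WT libraries, against 134.7, 118.6 and 141.5 CPM among those labelled CRY1 KO (log2 0.62, SE 0.15, edgeR adjusted p = 0.071). Plpp1, of the same family, differed by -0.04 (0.02 without CRY1 KO 1), and Pld6 by -0.70 (SE 0.39). Of 20 genes whose products act on lipin protein, 0 passed (3 at an unadjusted p under 0.05, 1 by DESeq2), with a median of 0.01 that was -0.01 without WT 1. Ctdnep1 and Cnep1r1, which encode the phosphatase complex that dephosphorylates lipins, had differences of 0.01 and -0.002, each with an SE of 0.10 and each changing sign with the library left out, and Sirt1 (0.40) and Ywhag (0.35), a 14-3-3 gene, had the largest.

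Among 20 factors reported to act on Lpin1 transcription, 3 were higher and 1 was lower by edgeR, where 1.70% of all tested genes passed. At an unadjusted p under 0.05 there were 10, against 2860 of all 13816 tested genes. By DESeq2 there were 9, against 1284 of 13816, and the list median was 0.14. Foxo1 (log2 0.98, SE 0.16, adjusted p = 0.0349), which encodes a fasting-active factor restrained by insulin, Hnf4a (0.73, SE 0.13, adjusted p = 0.0389), a hepatocyte nuclear receptor gene, and Nr1d2 (0.86, SE 0.11, adjusted p = 0.0165), which encodes the clock repressor REV-ERBβ, rose. Nfyb, a subunit gene of the CCAAT-binding factor NF-Y, fell (-0.75, SE 0.13, edgeR adjusted p = 0.0349). In these 4 genes the groups did not overlap, and nothing further is read from this for genes that passed. Over the list the groups did not overlap in 10 of 20 genes, against 27.3% of all tested genes.

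Other factors of that list did not pass, and some set WT 1 apart from the other WT libraries. Srebf1, the gene of the lipogenic factor SREBP-1, stood at 97.0, 247.6 and 290.1 CPM in WT 1, 2 and 3 and between 92.5 and 118.0 CPM in CRY1 KO (log2 -1.04, SE 0.41), so among WT libraries its order was the reverse of that of Lpin1. Ppargc1a, the gene of PGC-1α, had 11.5, 4.94 and 6.50 CPM among WT libraries, against 11.3 to 13.7 CPM among those labelled CRY1 KO (0.67, SE 0.29). For Ppara the WT values were 20.5, 19.6 and 43.5 CPM, so WT 3 and not WT 1 stood apart, and the difference was 0.79 (SE 0.35). The glucocorticoid receptor gene Nr3c1 (-0.16), Srebf2 (-0.18, but 0.07 without WT 1) and Arntl (-1.73, SE 0.42), which encodes BMAL1, did not pass either.

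Lists of genes known to answer to the signals that act on Lpin1 were also summarised by library. For 23 tested glucocorticoid and fasting genes the median deviation from the mean of the 6 libraries was 0.52 on the log2 scale in WT 1, -0.56 in WT 2, -0.67 in WT 3 and 0.04 to 0.34 in CRY1 KO. For 23 genes of the sterol response it was 0.98, -0.54 and -0.90 in WT 1, 2 and 3 and 0.03 to 0.14 in CRY1 KO. In both lists the WT 1 median lay above that of every library labelled CRY1 KO. Lpin1 in WT 1 lay within their range. Single genes did not all follow the glucocorticoid median. In WT 1, Zbtb16 (8.70 CPM, against 31.2 to 78.8 CPM in CRY1 KO) and Per1 (19.4 against 43.9 to 89.4 CPM) lay below every library labelled CRY1 KO. In fatty acid synthesis (19 genes) the median deviation was 0.14, -0.51 and -0.35 in WT and 0.18 to 0.35 in CRY1 KO.

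With all libraries 0 of the 23 glucocorticoid and fasting genes and 0 of the 23 sterol genes passed the edgeR test. At an unadjusted p under 0.05 there were 8 and 0, against 2860 of 13816 tested genes. By DESeq2 there were 6 and 0, against 1284 of 13816. Without WT 1 the counts past the edgeR threshold were 10 and 13, all higher, where 4.04% of all genes passed. WT 1 held the highest median of both lists, so leaving it out raises these differences by itself. With any other library left out 0 genes of either list were called higher. In the glucocorticoid list 1 was called lower without CRY1 KO 1 or CRY1 KO 3. Hmgcs1, an enzyme gene of cholesterol synthesis, had -0.93 (SE 0.84) and Mvd, a decarboxylase gene of the same pathway, -0.91 (SE 0.92), and without WT 1 both turned positive, at 0.54 and 0.59. The median of the sterol list likewise went from -0.05 to 0.67 without WT 1, but to -0.27 without WT 2 and -0.30 without WT 3. Zbtb16 (3.29, SE 0.52) and Per1 (2.74, SE 0.87) had the largest differences of the glucocorticoid list. In fatty acid synthesis the elongase gene Elovl5 (0.94), the desaturase gene Scd1 (1.25) and the malic enzyme gene Me1 (0.67) passed, all higher. The count was 10 without WT 1, 5 without WT 3, 1 without CRY1 KO 2 and 0 without any other library. Over the whole table the counts in those named fits were 565, 844 and 20, and 17 to 40 in the others.

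**Figure D4:**
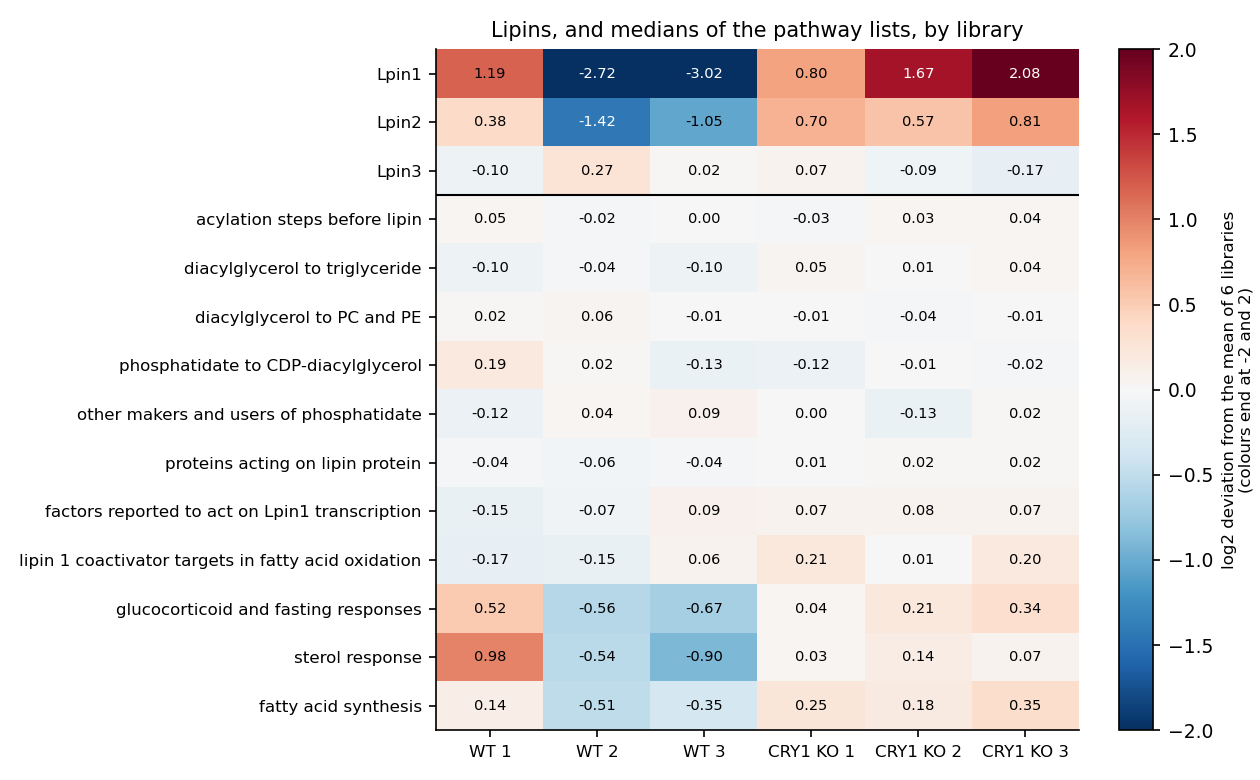
Log2 deviation from the mean of the 6 libraries for each lipin (3 upper rows) and the median deviation of each pathway list (lower rows), by library; PC and PE are phosphatidylcholine and phosphatidylethanolamine. Lpin1 runs from -3.02 in WT 3 to 2.08 in CRY1 KO 3. Medians of the 5 lists of glycerolipid steps and other phosphatidate enzymes and of the lipin-acting proteins stay between -0.13 and 0.19. A median evens out the genes of its list, so its range cannot be set against that of a single gene.

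A further list held 22 tested genes of fatty acid oxidation and related fasting or lipid roles, drawn up around the coactivator role of lipin 1. Of these 1 passed (7 at an unadjusted p under 0.05, 6 by DESeq2, against 2860 and 1284 of all 13816 tested genes). Whether lipin 1 acts on each gene of the list was not tested. The list median of 0.38 was 0.21 without WT 1 and 0.18 without CRY1 KO 3. Cpt1a, which encodes the carnitine palmitoyltransferase of mitochondrial fatty acid entry, had 219.9, 196.4 and 246.3 CPM among WT libraries, against 333.1, 336.7 and 412.8 CPM among those labelled CRY1 KO (log2 0.71, SE 0.12, edgeR adjusted p = 0.0365). Its WT libraries lay close together, whereas those of Lpin1 did not. Angptl4, the gene of a secreted lipase inhibitor, was likewise highest of the WT libraries in WT 1, at 147.3, 26.7 and 39.2 CPM, against 196.4 to 240.9 CPM in CRY1 KO (1.59, SE 0.71). Fgf21, the gene of a fasting hormone, had 1.56 (SE 0.50) at levels of 0.13 to 1.29 CPM.

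The genes whose log2 CPM most resembled each lipin over the 6 libraries were taken by Pearson correlation, among genes with an SD from 0.5 to 2 times that of the lipin. Of 546 genes compared with Lpin1, the nearest were Tsc22d3 (r = 0.992), which encodes the glucocorticoid-induced leucine zipper, Noct (0.989), a rhythmically expressed nocturnin gene, Ppp1r3g (0.988), a glycogen-targeting subunit gene of protein phosphatase 1, Gm26920 (0.986), at no more than 0.23 CPM, and Hspa1b (0.985), a heat shock protein gene with a near-identical copy whose reads may be shared. Tsc22d3 stood at 156.9, 26.4 and 27.8 CPM in WT 1, 2 and 3 and between 154.5 and 193.4 CPM in CRY1 KO. Noct had 42.9 CPM in WT 1, no more than 5.67 CPM in WT 2 and WT 3, and 30.2 to 57.7 CPM in the libraries labelled CRY1 KO. In both genes WT 1 lay inside the CRY1 KO range, as for Lpin1.

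Of 2625 genes compared with Lpin2, the nearest were Nfkbia (r = 0.994), an inhibitor gene of NF-κB, Tmc7 (0.992), Frmd4b (0.992), Mknk2 (0.990), a kinase gene of translation initiation, and Cpeb2 (0.989), which encodes an RNA-binding protein. Mknk2 had 135.5, 48.0 and 56.7 CPM among WT libraries, against 127.8 to 153.8 CPM among those labelled CRY1 KO. For Lpin3 the nearest of 8220 genes were Lage3 (0.996), Rabl2 (0.989), Herc1 (0.980), Exosc3 (0.973) and Mpc2 (0.967), which encodes a subunit of the mitochondrial pyruvate carrier. Lpin1 and Lpin2 correlated with each other at 0.968 and with Lpin3 at -0.766 and -0.764. These values rest on 6 libraries, of which WT 2 and WT 3 carry most of the range for Lpin1 and Lpin2, and with so many genes compared values of this size describe the ranking only.

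**Figure D5:**
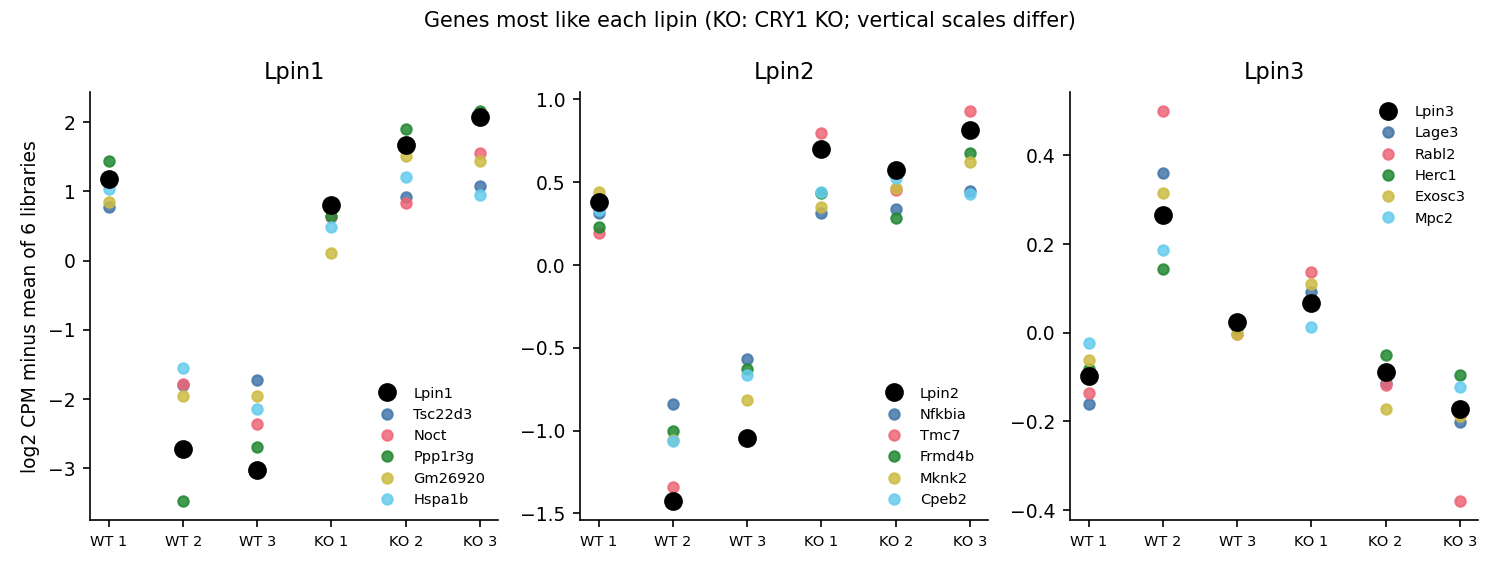
Log2 CPM minus the mean of the 6 libraries for each lipin (black) and the 5 genes with the highest Pearson r to it (colours), by library; the vertical scales differ between panels. The genes beside Lpin1 and Lpin2 are low in WT 2 and WT 3, and those beside Lpin3 are highest in WT 2 and span a smaller range.

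Markers of tissues in which lipins are abundant were also listed by library, and their part in the lipin values was not tested. Of 9 adipocyte markers 5 were in the table, with a summed level between 20.4 and 32.5 CPM. The adipocyte hormone genes were near 0, with Adipoq at most 0.06 CPM and Cfd at most 0.28 CPM, while Fabp4 ran from 6.89 to 16.6, Adrb3 from 6.36 to 10.5 and Pparg from 4.91 to 12.4 CPM. Of 11 striated muscle markers 3 were in the table, with a summed level between 0.59 and 0.90 CPM. Of 9 intestinal markers 5 were in the table, with a summed level between 38.2 and 70.3 CPM. Vil1, Lct and Muc2 were at most 0.45 CPM, and Fabp2, which made up most of the sum, stood between 29.5 and 60.9 CPM. Lgals4, which encodes a galectin of gut epithelium, was the 1 called gene of 3 tested in that list, with 7.47 to 8.62 CPM in the WT libraries and 19.7 to 23.9 CPM in those labelled CRY1 KO.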

How the data were processed

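RNA of 6 liver libraries was analysed from the authors' table of estimated counts, deposited as whole numbers, with columns matched to samples by title. They worked on GRCm39 (mm39) with HISAT2 2.2.1, Trim Galore 0.6.7, limma 3.42.2 and StringTie 2.1.7, per the submitters' processing notes; the sources used here do not give the order of steps, gene annotation or strand setting. That the values are estimated counts was inferred from the values and from StringTie being named. Genes were filtered with filterByExpr (minimum count 10, minimum total 15; 13816 kept), scaled by TMM and compared with edgeR 4.0.16 (robust quasi-likelihood test, Benjamini-Hochberg adjustment over all tested genes, threshold 0.05), with DESeq2 1.42.0 as an alternative. Log2 CPM used a prior count of 2. The procedure was tested on simulated counts.

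Lipin lengths and coding sequences came from GENCODE M21 and promoters from RefSeq, both on GRCm38, another build than the authors' one, so no coordinate was joined to the counts. Lipin coding sequences were aligned globally with Biopython 1.88. The members and the pathway and marker lists were chosen with earlier results of these data known. Genes were named by rule: the lipins, Cry1, up to 6 called genes and the 2 largest differences of each list, fixed role genes, and the 5 genes most like each lipin; genes given only as cell type markers were named after their values were seen. Alternatives were other scaling, no filter, DESeq2, a replicate block, other lengths and each library left out.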

Additional observations from a re-analysis of the deposited data

How the results depend on the processing

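The log2 differences of the 3 lipins kept their sign in all 11 alternatives, and those of Lpin1 and Lpin2 moved by more than 1 SD of the replicates only without WT 1. With each library left out they ran from 1.33 to 4.47 for Lpin1, from 0.86 to 1.92 for Lpin2 and from -0.21 to -0.03 for Lpin3. The mean Lpin1 share ran from 18.9% to 39.6% in WT and from 53.5% to 63.5% in CRY1 KO. The 235 genes called over the whole table became 113 without scaling beyond the library total and 1284 with DESeq2, and 17 to 844 with a library left out. The 11 called genes of the pathway lists became 5, 40 and 0 to 46 under the same settings. The lowest counts were without WT 2 and the highest without WT 3 (whole table) or WT 1 (lists). The cause was not tested, and these fits had fewer libraries.

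A replicate block in the model gave counts of 94 and 6, and the differences were 3.38 for Lpin1, 1.40 for Lpin2 and -0.13 for Lpin3, with 0 of them past the threshold. Deviations of same-numbered libraries correlated at -0.07, -0.01 and 0.07. WT 1 correlated best with CRY1 KO 2 (0.10), WT 2 with CRY1 KO 1 (0.06) and WT 3 with CRY1 KO 3 (0.07). Values this small, from so few libraries, cannot decide whether the numbers pair the libraries. Scaling by relative log expression and dropping the filter left both counts within 1.5 times.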
